A study of Mus musculus and Ochotona curzoniae and Rattus norvegicus with 18 samples.

Results

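The genes described here encode the machinery that licenses replication origins and copies DNA at the fork. They were chosen by symbol, as a list of 45 genes sorted by complex and role, and 44 of the 45 were found in both the pika and the mouse table, out of 14418 genes joined by symbol. PCNA, the sliding clamp, was the exception: no row of the pika table carried that symbol. The cells were cultured skin fibroblasts of the Tibetan pika (Ochotona curzoniae), a small high-altitude mammal of the rabbit order, with 3 RNA-seq libraries. They were compared with cultured skin fibroblasts of the C57BL/6J mouse, with 3 libraries. Both were grown in DMEM with 10% FBS and 1% PS under 5% CO2 at 37 °C and lysed at 90% confluency, so no treatment or allele separates the groups. The study compared fibroblasts of several species to ask about the mRNA level of core clock genes. Its rat and rabbit libraries and its 6 ChIP-seq samples are not used here. Each species is represented by 1 kind of culture, so species, genome and gene annotation cannot be told apart.

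Replication starts from origins marked by the origin recognition complex, ORC. In G1 phase, ORC together with CDC6 and CDT1 loads the ring-shaped MCM2-7 helicase onto DNA, a step called licensing, which geminin (GMNN) blocks after S phase has begun. In S phase, CDC45 and the GINS complex join MCM2-7 to form the active CMG helicase, and polymerases alpha, epsilon and delta, the PCNA clamp and its RFC loader copy both strands behind it. Many of these genes are transcribed in late G1 and S phase under E2F factors, so their mRNA is high in dividing cells and low in resting fibroblasts.

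Levels are given as rescaled FPKM, that is, the deposited FPKM scaled so that the joined genes sum to 1000000 in each library, as mean ± SD over 3 libraries. Totals were 7703576 to 8481030 reads in the pika libraries and 3663102 to 5758950 in the mouse libraries, so the mouse values are the less deeply sampled ones. The joined genes held 87.1% of the FPKM in pika and 37.0% to 38.3% in mouse, and the 10 most abundant rows of each table held 4.3% in pika and 39.1% to 41.0% in mouse. A gene was called where limma-trend gave an adjusted p below 0.05 over all genes tested and a log2 fold change of at least 1 in size. Of 17 fibroblast markers 2 were called higher in pika and 8 lower (all genes: 28.7% and 23.5%), and they summed to 17989 to 18456 rescaled FPKM in pika and 26443 to 26805 in mouse, with VIM at 4335 and 5298, COL1A1 at 4787 and 4811, and SPARC, called lower, at 2999 and 6022. Keratinocyte markers, checked because the labels give epidermis as the tissue, summed to 91.58 to 104.1 in pika and 60.77 to 72.65 in mouse, and 6 of the 12 joined (KRT5, KRT14, KRT10, KRT15, EPCAM and CDH1) were at 0 in pika. Different genes made up these sums: PERP averaged 70.42 in pika and 2.659 in mouse, PKP1 26.7 and 0.07344, and DSP 0.153 and 45.21. Endothelial markers summed to 0.7074 to 1.604 in pika and 32.28 to 39.26 in mouse, most of it from TEK alone, at 0.7019 and 31.42. Leukocyte and macrophage markers summed to 3.377 to 4.733 in pika and 20.68 to 36.03 in mouse, with PTPRC at 0 in pika. Melanocyte markers summed to 68.13 to 78.54 in pika and 54.8 to 58.3 in mouse, with TYR at 0 in mouse. Whether these other cell types play a part in the values below was not tested.

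Genes of every role at the origin and fork were called higher in pika fibroblasts. Of the 44 members tested, 40 were called higher in pika and 0 lower, where 28.7% of all 10348 genes tested were called higher and 23.5% lower (limma-trend). Genes were tested where either species averaged at least 1 deposited FPKM. DSCC1, DTL, CDC6, GINS3, MCM10 and ORC1 averaged less in mouse and entered through pika alone, so they could hardly be called lower. The median log2 fold change of the members, pika over mouse, was 2.79, beside 0.21 over all genes tested. The 4 members not called, GINS2, ORC3, ORC4 and ORC6, had log2 fold changes of 0.86, 0.95, 0.69 and 0.54 with adjusted p under 0.05 (limma-trend), and missed the fold minimum alone. Of the 40 called, 18 had a log2 fold change of 3 or more, 11 lay between 2 and 3, and 11 between 1 and 2. In all 44 members the lowest pika library was above the highest mouse library, which held for 49.6% of all genes tested.

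All 44 joined members had reads in both species. Their means ran from 24.96 to 387 rescaled FPKM in pika, with a median of 113.7, and from 0.8756 to 63.22 in mouse, with a median of 16.75. In pika 23 members averaged 100 or more, and in mouse 0 did. In pika 0 members averaged under 10, and in mouse 16 did. Ranked within its own species among all genes tested, the median member stood at the 80.8th percentile in pika and the 30.5th in mouse, and all 44 ranked higher in pika. Shares of all genes tested at these levels, or ranking higher in pika, were not counted. In bulk RNA, a larger share of cycling cells and more RNA per cell cannot be told apart.

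**Figure D1:**
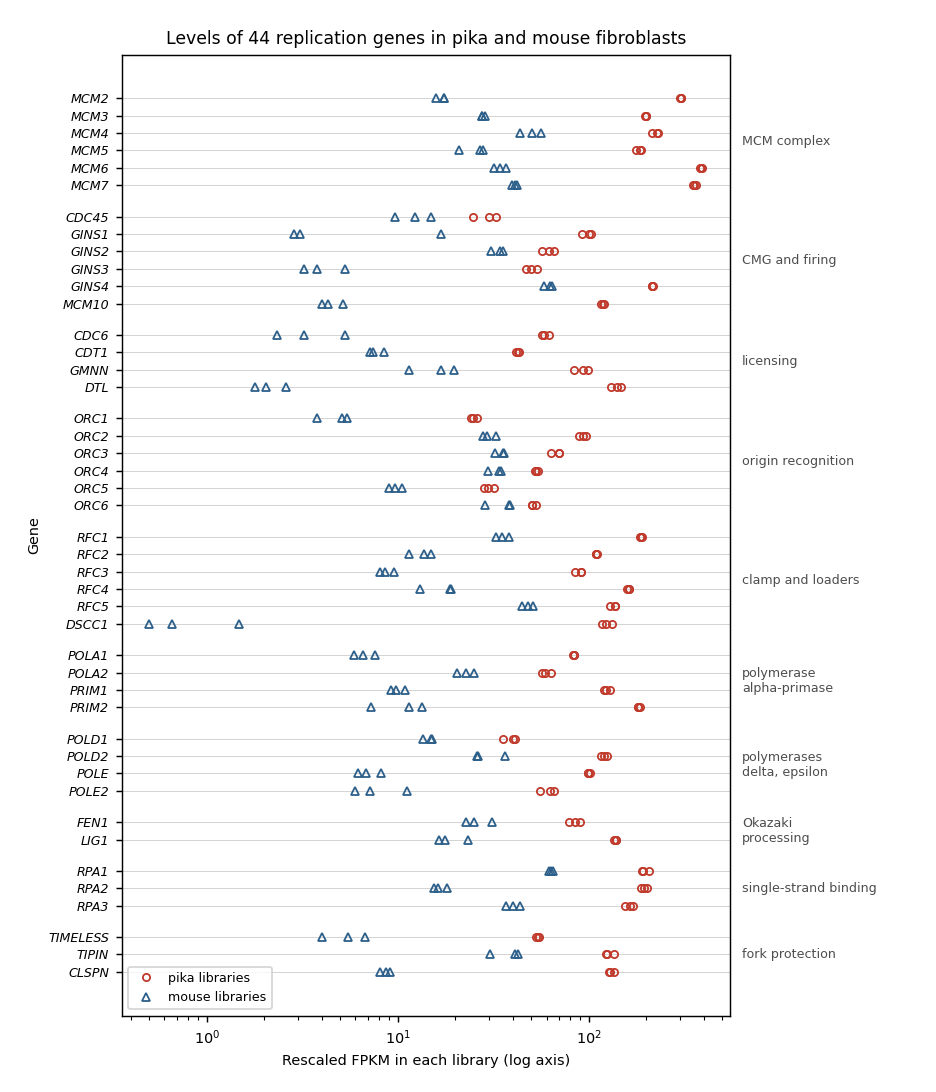
Rescaled FPKM of 44 replication genes (log axis) in each of 3 pika libraries (circles) and 3 mouse libraries (triangles), grouped by role. Each gene's circles lie right of its triangles, with DSCC1 and DTL farthest apart and ORC6 closest.

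**Figure D2:**
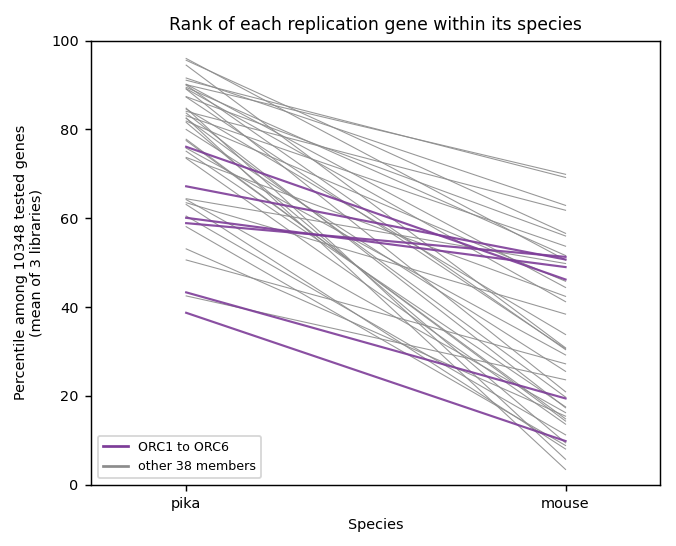
Percentile of each member's mean level among the 10348 genes tested, in pika (left) and mouse (right), with 1 line per gene and ORC1 to ORC6 in purple. All 44 lines run downward to mouse, and the ORC lines lie between 38.7 and 76.1 in pika.

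FPKM divides reads by gene length, and the mouse gene models were longer than the pika models in 43 of 44 members, by a median of 1.88-fold (2.26-fold over the 9946 genes tested that had both lengths). Among genes whose models differed by at most 2-fold in length, 25 of 26 members were called higher, where 20.3% of 4113 genes were. ORC4 was the exception. Without division by gene length, from the reads worked out from the FPKM steps, 39 of 44 members were called higher, where 25.7% of genes were. The median was then 2.77, beside 0.06 over all genes. On the deposited FPKM, without rescaling, all 44 were called higher, but so were 58.3% of all genes, whose median was then 1.29.

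Promoter sequence was looked at because the rule did not use it and because E2F control is the shared feature these genes are known for. RefSeq mouse promoters (GRCm38.p6, 250 bases before to 50 after the start) were at hand for 35 of the 45 members, with 43 promoters in all. The letters TTCCCGC or TTGGCGC, on either strand, were found in 21 of 43 member promoters (48.8%), 6.81% of 32851 promoters in the table and 12.0% of 10603 promoters of genes tested. CCAAT, on either strand, was found in 25 of 43 member promoters (58.1%), 37.4% of promoters in the table and 37.1% of those of genes tested. CCAAT reads ATTGG on the other strand, so a match can share letters with TTGGCGC. The 20 genes with E2F-type letters had a median log2 fold change of 2.96 (0.69 to 5.49), and 18 were called higher. The 14 tested genes without them had a median of 1.64 (0.54 to 4.44), and 13 were called higher. These are mouse sequences only, and a match or its lack shows no binding. Below are the 180 bases before the start of 4 genes with E2F-type letters and 2 without. Each window lies outside the annotated span of its own gene, and overlap with neighbouring genes was not checked. The windows were picked after the matches were seen, to show where such letters sit near the start. The 4 with letters all differed strongly, with log2 fold changes of 3.34 to 5.49. Of the 2 without, MCM2 had 4.08 and ORC6 0.54. The weakly differing ORC3 (0.95) and ORC4 (0.69), both with such letters, were not picked. The picked genes thus cannot show whether the letters go with larger fold changes.
Mcm6, chr1:128359706-128359885, minus strand: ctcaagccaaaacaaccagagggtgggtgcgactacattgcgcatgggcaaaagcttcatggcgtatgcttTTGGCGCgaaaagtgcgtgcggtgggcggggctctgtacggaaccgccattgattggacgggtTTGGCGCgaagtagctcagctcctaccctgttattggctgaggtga
Dtl, chr1:191575545-191575724, minus strand: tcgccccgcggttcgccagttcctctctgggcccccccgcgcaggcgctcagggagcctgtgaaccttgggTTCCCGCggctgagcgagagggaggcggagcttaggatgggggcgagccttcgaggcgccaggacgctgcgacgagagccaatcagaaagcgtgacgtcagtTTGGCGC
Gins3, chr8:95633379-95633558, plus strand: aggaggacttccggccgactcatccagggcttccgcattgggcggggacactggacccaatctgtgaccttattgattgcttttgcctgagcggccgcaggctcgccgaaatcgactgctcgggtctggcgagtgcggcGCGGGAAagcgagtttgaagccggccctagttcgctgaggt
Prim1, chr10:128015035-128015214, plus strand: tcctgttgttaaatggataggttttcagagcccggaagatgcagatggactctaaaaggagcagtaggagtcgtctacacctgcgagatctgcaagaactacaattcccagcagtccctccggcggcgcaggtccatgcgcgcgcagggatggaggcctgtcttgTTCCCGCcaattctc
Mcm2, chr6:88898781-88898960, minus strand: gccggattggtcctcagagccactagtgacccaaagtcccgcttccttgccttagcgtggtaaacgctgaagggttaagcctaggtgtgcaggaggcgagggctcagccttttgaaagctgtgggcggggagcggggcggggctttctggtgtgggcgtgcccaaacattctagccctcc
Orc6, chr8:85299452-85299631, plus strand: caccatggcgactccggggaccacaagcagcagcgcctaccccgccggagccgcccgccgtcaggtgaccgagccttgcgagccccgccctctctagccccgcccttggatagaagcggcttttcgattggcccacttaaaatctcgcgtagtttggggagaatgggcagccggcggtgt
Capitals mark the E2F-type letters. In Mcm6 the matches began 109 and 46 bases before the start, in Dtl 109 and 7, in Gins3 41 and in Prim1 15. MCM2, with no match in its window, had a larger fold change than MCM6, which had a pair of them.

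The helicase core, the ring that unwinds DNA, was higher in every subunit. All 6 MCM2-7 subunits were called higher in pika, with log2 fold changes of 2.15 to 4.08 and adjusted p between 8.7e-09 and 2.3e-11 (limma-trend). MCM2 stood at 304.0, 305.1 and 298.3 rescaled FPKM in the pika libraries, against 15.81, 17.48 and 17.51 in the mouse libraries. All pika libraries were many times above the mouse ones, and its log2 fold change was 4.08 (SE 0.06), the largest of the ring. MCM6 was the most abundant member in pika, with 393.0, 379.5 and 388.4 there against 34.16, 36.61 and 31.79 in mouse, and its log2 fold change was 3.46 (SE 0.06). MCM7 averaged 356.9 ± 5.96 in pika and 41.01 ± 1.22 in mouse (fold change on the log2 scale 3.09). MCM5 averaged 182.8 ± 5.26 in pika and 25.13 ± 3.79 in mouse (2.82), and MCM3 198.5 ± 2.12 and 27.95 ± 0.526 (2.78). MCM4, the highest subunit in mouse, averaged 223.7 ± 8.09 in pika and 49.89 ± 6.14 in mouse and had the smallest log2 fold change of the ring, 2.15. Without gene length the log2 fold changes of all 6 subunits were larger. They were 4.76 for MCM2, 3.53 for MCM3, 3.06 for MCM4, 3.02 for MCM5, 3.64 for MCM6 and 3.26 for MCM7.

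The subunits of the ring work in equal numbers, and their mRNA was spread over a 2.12 ± 0.0806-fold range in the pika libraries and a 2.97 ± 0.526-fold range in the mouse libraries (highest over lowest FPKM within a library). The order differed: by mean, MCM2 ranked above MCM3, MCM4 and MCM5 in pika and lowest in mouse, and MCM4 ranked below MCM6, MCM7 and MCM2 in pika and highest in mouse. MCM10, a helicase partner needed for origin firing, averaged 118.1 ± 2.55 in pika and 4.503 ± 0.610 in mouse, which gave a log2 fold change of 4.44 (SE 0.10, adjusted p 3.1e-10 in limma-trend) and 3.52 without gene length.

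CDC45 and the 4 GINS subunits, which turn the MCM ring into the CMG helicase, had log2 fold changes from 0.86 to 3.92. CDC45 had 29.99, 32.68 and 24.79 rescaled FPKM in the pika libraries, against 14.90, 9.644 and 12.29 in the mouse libraries. These groups did not overlap but lay close, with a log2 fold change of 1.19 (SE 0.16, adjusted p 7.8e-05 in limma-trend), which fell below the fold minimum, at 0.97, under upper-quartile scaling and was 1.87 without gene length. GINS4 was the highest GINS subunit in both species, at 214.6 ± 1.36 in pika and 61.59 ± 3.05 in mouse (fold change on the log2 scale 1.79). GINS3 was the lowest by mean in both, at 50.01 ± 3.19 in pika and 4.101 ± 1.09 in mouse (3.34, and 2.26 without gene length), and its promoter is among those shown above. GINS2 had 61.91, 57.06 and 65.69 in pika, against 30.71, 35.69 and 34.31 in mouse. It was not called, and without gene length its log2 fold change of 0.86 turned to -0.39. Its mouse model was worked out as 5.00 times as long as the pika one.

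GINS1 and GINS3 had few mouse reads, 31 and 30 over 3 libraries, and GINS1 varied most of the 44 members relative to its mouse mean. Its pika libraries stood at 99.76, 91.88 and 103.1 rescaled FPKM, against 3.074, 2.865 and 16.79 in mouse. The third mouse library, with 23 reads where the others had 5 and 3, was well above the other mouse libraries and still far below all pika ones. The log2 fold change was 3.92 (SE 0.50, adjusted p 4.5e-05 in limma-trend), 4.64 without mouse replicate 3 and between 3.54 and 3.97 without any other single library. The GINS subunits were spread over a 4.30 ± 0.254-fold range in pika and a 17.9 ± 5.99-fold range in mouse.

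Loading factors and their regulators were all called higher in pika, 4 of 4, with log2 fold changes of 2.33 to 5.49. DTL is the substrate receptor of the ubiquitin ligase that destroys CDT1 during S phase. It had 129.9, 141.1 and 147.9 rescaled FPKM in the pika libraries, against 2.040, 1.795 and 2.584 in the mouse libraries. The mouse libraries, with 79 reads between them, were all near the bottom of the range of members, and the log2 fold change was 5.49 (SE 0.12, adjusted p 2.3e-10 in limma-trend), or 4.49 without gene length. CDC6, which recruits CDT1 and MCM2-7 to ORC, had 61.71, 56.68 and 58.10 in pika and 3.209, 5.261 and 2.329 in mouse. Its log2 fold change was 3.75 (SE 0.20), and 2.32 without gene length. Its mouse model was worked out as 6.02 times as long as the pika one, and a common factor in either would shift the 6.02 and the 2.32. CDT1 itself averaged 42.46 ± 0.734 in pika and 7.654 ± 0.710 in mouse (fold change on the log2 scale 2.33). Its mouse value rested on 16 reads as worked out. By the worked-out lengths it was the one member with a longer model in pika (mouse over pika 0.552). Without gene length the log2 fold change was 3.70. A common factor left out of its mouse reads and length would change the 16 reads, the 0.552 and the 3.70. The CDT1 inhibitor GMNN averaged 91.76 ± 7.96 in pika and 15.97 ± 4.16 in mouse (2.48).

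The origin recognition complex differed least. Of its 6 subunits, 3 were called higher in pika, with a median log2 fold change of 1.24, the lowest median of any role. ORC1, the subunit whose protein level is cell-cycle regulated in human cells, had 24.64, 26.08 and 24.16 rescaled FPKM in the pika libraries, against 3.751, 5.410 and 5.091 in the mouse libraries. It was the lowest subunit in both species and had the largest log2 fold change of the complex, 2.19 (SE 0.14, adjusted p 3.3e-07 in limma-trend). ORC2 averaged 92.54 ± 3.80 in pika and 29.91 ± 2.48 in mouse (1.60). ORC5 averaged 29.88 ± 1.83 in pika and 9.739 ± 0.797 in mouse (1.52, and 0.84, under the fold minimum, without gene length).

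The other 3 ORC subunits were within a factor of 2 between species on the log2(value + 1) scale. ORC3 had 63.12, 69.47 and 69.43 in pika, against 35.52, 32.11 and 35.82 in mouse. ORC4 averaged 53.23 ± 0.927 in pika and 32.73 ± 2.66 in mouse, and its log2 fold change of 0.69 was 1.07, past the minimum, without gene length. ORC6 had 52.75, 50.13 and 50.25 in pika and 28.69, 38.12 and 38.56 in mouse, and had the smallest log2 fold change of the 44 members. No E2F-type letters stood in its window above. Its log2 fold change of 0.54 (SE 0.11, adjusted p 0.0013 in limma-trend) turned to -0.39 without gene length, with a mouse model worked out as 4.02 times as long. ORC subunits were spread over a 3.72 ± 0.296-fold range in pika, with ORC2 highest, and an 8.03 ± 1.27-fold range in mouse, with ORC6 highest by mean.

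**Figure D3:**
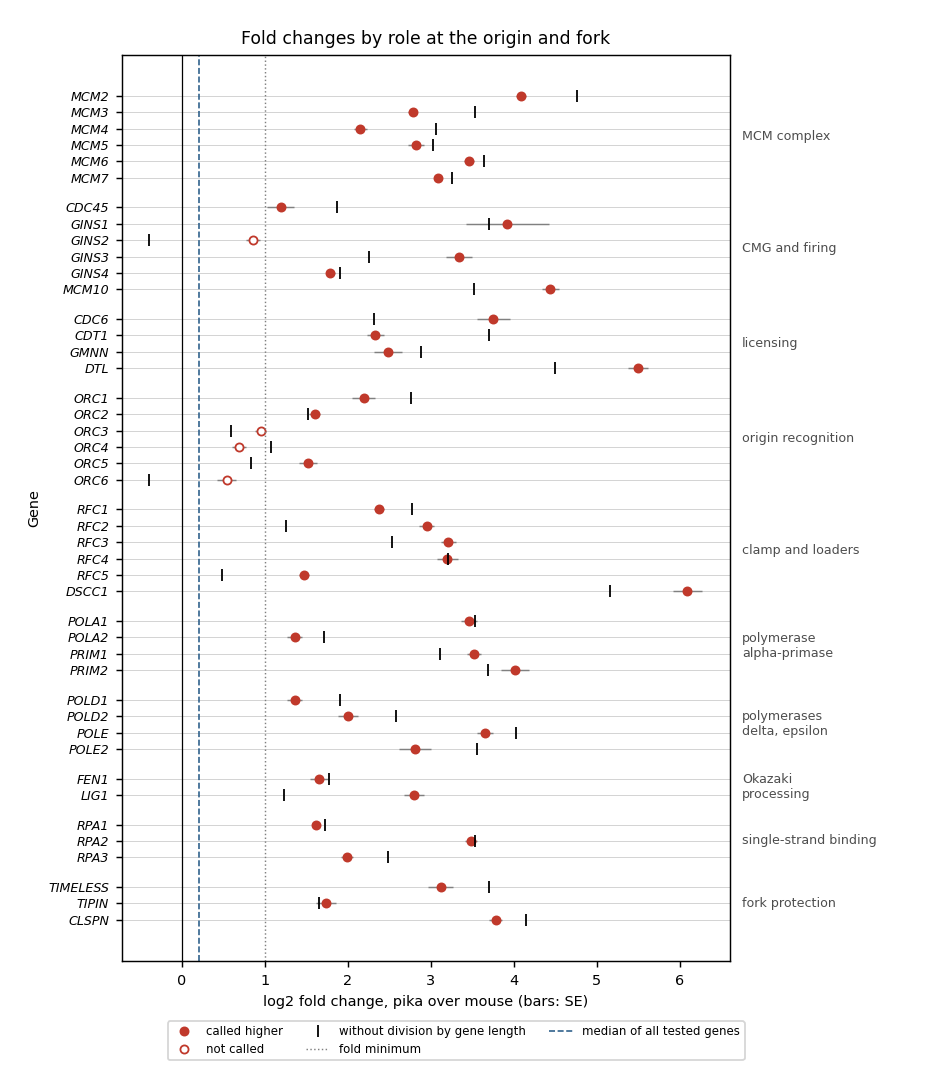
Log2 fold change of pika over mouse for each of 44 members by role (circles, filled where called higher; bars are SE), with the value without division by gene length (ticks), the fold minimum of 1 (dotted) and the median of all genes tested, 0.21 (dashed). DSCC1 (6.09) and DTL (5.49) are farthest right, and the 4 open circles are GINS2, ORC3, ORC4 and ORC6.

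The clamp could be read in mouse only. PCNA stood at 113.0, 105.0 and 111.6 rescaled FPKM in the mouse libraries, a mean of 109.9 ± 4.3, above each of the 44 other members in mouse. Mouse pseudogene copies of PCNA are annotated, so its reads could be split between rows: Pcna-ps2 had 1.105, 4.344 and 2.684 deposited FPKM and Pcna-ps1 had 0. The tested members of the clamp and loader role, RFC1 to RFC5 and DSCC1, were all called higher in pika, 6 of 6. Their log2 fold changes ran from 1.47 to 6.09.

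DSCC1, part of the alternative clamp loader that works in sister chromatid cohesion, had the largest fold change of all members. It had 117.2, 122.8 and 132.1 rescaled FPKM in the pika libraries, against 1.473, 0.6538 and 0.4999 in the mouse libraries. The mouse values rested on 7, 2 and 2 reads, so the size of the log2 fold change, 6.09 (SE 0.18, adjusted p 1.6e-09 in limma-trend) and 5.16 without gene length, depends on very few mouse reads. RFC1, the large subunit, averaged 186.9 ± 2.34 in pika and 35.31 ± 2.85 in mouse (fold change on the log2 scale 2.37). RFC3 averaged 88.47 ± 3.72 and 8.68 ± 0.755 (3.21, and 2.53 without gene length) and RFC4 161.0 ± 2.10 and 16.90 ± 3.39 (3.20). RFC2 averaged 109.3 ± 0.794 in pika and 13.39 ± 1.75 in mouse. Its log2 fold change of 2.95 was 1.26 without gene length, with a mouse model worked out as 6.91 times as long. RFC5 averaged 133.9 ± 4.27 in pika and 47.90 ± 3.13 in mouse, and its 1.47 became 0.48, under the minimum, without gene length. The 5 RFC subunits, which form 1 ring together, were spread over a 2.11 ± 0.0669-fold range in pika and a 5.54 ± 0.457-fold range in mouse.

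Polymerase alpha-primase, which lays down each RNA-DNA primer, was higher in all 4 subunits. The primase subunit PRIM2 stood at 181.8, 180.1 and 184.3 rescaled FPKM in pika, against 7.221, 11.46 and 13.42 in mouse, and PRIM1 at 123.2, 119.8 and 128.3 in pika, against 10.84, 9.732 and 9.158 in mouse. The pika libraries lay far above the mouse ones for both, PRIM2 varied more than PRIM1 between mouse libraries, and the log2 fold changes were 4.01 (SE 0.17) for PRIM2 and 3.52 (SE 0.08) for PRIM1. The catalytic subunit POLA1 averaged 83.22 ± 0.225 in pika and 6.687 ± 0.861 in mouse (3.46, within its SE of PRIM1, and above PRIM1 without gene length, at 3.53 and 3.11). The accessory subunit POLA2 averaged 59.66 ± 3.55 in pika and 22.73 ± 2.30 in mouse, which gave a log2 fold change of 1.36 (SE 0.09, adjusted p 4.5e-07 in limma-trend). POLA2 was thus the lowest subunit in pika and the highest in mouse.

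The members from the replicative polymerases were POLE and POLE2 of the leading-strand enzyme epsilon and POLD1 and POLD2 of the lagging-strand enzyme delta, and all 4 were called higher in pika. POLE, the catalytic subunit of epsilon, had 98.97, 101.0 and 98.54 rescaled FPKM in pika, against 6.180, 8.173 and 6.844 in mouse, which gave a log2 fold change of 3.65 (SE 0.10, adjusted p 1.1e-09 in limma-trend). POLE2 averaged 61.19 ± 5.09 in pika and 8.077 ± 2.68 in mouse (2.81, and 3.55 without gene length). POLD1, the catalytic subunit of delta, had 41.16, 40.09 and 35.71 in pika, against 13.62, 14.90 and 15.04 in mouse, which gave a log2 fold change of 1.36 (SE 0.09, adjusted p 5.5e-07 in limma-trend). POLD2 averaged 120.2 ± 4.25 in pika and 29.54 ± 5.93 in mouse (2.00). By mean level, POLE was above POLD1 in pika and below it in mouse. The remaining subunits, from the list of other replication genes, were not uniform within either enzyme. Delta's POLD3 averaged 62.47 ± 1.65 in pika and 11.16 ± 1.82 in mouse (2.39, called higher), and POLD4 was the 1 subunit called lower (-1.54). Epsilon's POLE3 averaged 166.0 ± 10.4 in pika and 66.88 ± 2.41 in mouse (1.30, called higher), and POLE4 54.57 ± 1.94 and 54.04 ± 3.83 (0.02, not called). POLD3, POLE3 and POLE4 were named after their values were seen.

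Lagging-strand fragments are trimmed by the nuclease FEN1 and sealed by the ligase LIG1, and both were called higher in pika. FEN1 averaged 84.19 ± 5.49 in pika and 26.27 ± 4.32 in mouse (fold change on the log2 scale 1.65). LIG1 averaged 137.5 ± 1.67 in pika and 19.14 ± 3.75 in mouse, which gave a log2 fold change of 2.80 that was 1.23 without gene length. The pika model of LIG1 was worked out as 687 bases, and the mouse one as 6.21 times as long. The 687 bases may be the true length divided by a common factor, which would also shift the 1.23.

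The single-strand binding complex RPA was higher in all 3 subunits, unequally. RPA2, the subunit phosphorylated when forks stall, had 202.2, 195.4 and 186.4 rescaled FPKM in pika, against 18.06, 15.48 and 16.27 in mouse (fold change on the log2 scale 3.48, SE 0.07, adjusted p 1.8e-10 in limma-trend). RPA1, the large DNA-binding subunit, averaged 196.3 ± 8.68 in pika and 63.22 ± 1.62 in mouse (1.62), and RPA3 162.9 ± 8.33 and 40.19 ± 3.15 (1.99). In pika the 3 subunits lay within a 1.21 ± 0.0503-fold range, the narrowest of the 8 complexes compared, and in mouse within a 3.83 ± 0.392-fold range, with RPA2 lowest.

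**Figure D4:**
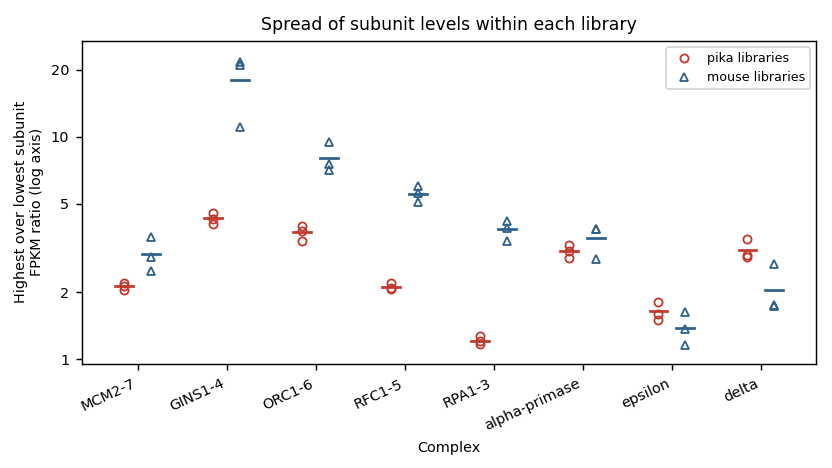
Ratio of the highest to the lowest subunit FPKM (log axis) within each pika library (circles) and mouse library (triangles) for 8 complexes, with bars at the mean of 3 libraries. The spread is narrower in all pika libraries than in all mouse libraries for MCM2-7, GINS1-4, ORC1-6, RFC1-5 and RPA1-3, and overlapping for alpha-primase. Delta, drawn from POLD1 and POLD2, goes the other way: its ratio is wider in all pika libraries than in all mouse libraries. Epsilon, drawn from POLE and POLE2, overlaps, with the higher mean in pika (1.64 against 1.38). With 2 subunits each, epsilon and delta do not show the spread of the whole enzymes.

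Fork protection and checkpoint mediators completed the list. CLSPN, the adaptor through which ATR activates CHEK1, had 127.1, 129.6 and 135.8 rescaled FPKM in pika, against 8.042, 8.664 and 9.089 in mouse (fold change on the log2 scale 3.78, SE 0.08, adjusted p 1.7e-10 in limma-trend). TIMELESS, which couples helicase and polymerases, averaged 53.87 ± 1.09 in pika and 5.403 ± 1.34 in mouse (3.12). Its binding partner TIPIN averaged 127.0 ± 6.65 in pika and 37.82 ± 6.64 in mouse (1.74). The partners of this dimer had TIPIN above TIMELESS by mean level in both species, and the difference between their fold changes was not tested.

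The reads behind these genes differed between the species by more than the library totals did. They also hold the difference in level, so they do not measure sequencing depth alone. By the reads worked out, a member had a median of 1600 reads over 3 libraries in pika (353 to 11039) and 164 in mouse (11 to 937). Under 50 mouse reads were worked out for 7 members. GINS1 was the only member whose fold moved by over 1.5 times when any 1 library was left out.

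A further 57 genes of replication and its control, listed by function and not by how they moved, were read in the same fit. Of the 55 tested, 41 were called higher in pika and 2 lower, where 28.7% of all genes tested were called higher and 23.5% lower, and their median log2 fold change was 1.81, beside 0.21 over all genes. Without gene length 35 were called higher and 4 lower, and without rescaling 47 higher and 0 lower. Origin firing and regulation genes were higher in 10 of 12, other polymerase and fork parts in 10 of 13, checkpoint genes in 5 of 7, and genes that assemble chromatin behind the fork in 8 of 8. The E2F and RB genes were higher in 8 of 15. The largest fold changes were in RAD1, part of the checkpoint clamp (4.12, and 2.47 without gene length), the nuclease DNA2 (3.85), LIN9, of the MuvB complex (3.77), and RIF1, a regulator of replication timing (3.69). The 2 lower genes were POLD4, the smallest subunit of polymerase delta, at 51.64 ± 5.87 in pika and 151.9 ± 4.90 in mouse (-1.54), and RAD9A, which forms the checkpoint clamp with RAD1 and HUS1, at 43.51 ± 2.94 and 95.44 ± 5.69 (-1.12, and -0.88 without gene length). Among those called higher, E2F1 (1.08, but -0.15 without gene length) and DONSON (1.24) had the smallest fold changes.

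RAD1 and RAD9A, which sit in 1 ring, were thus called in opposite directions, with RAD1 at 87.66 ± 8.35 in pika and 4.157 ± 1.16 in mouse. In the E2F family, E2F1, E2F2 (2.95, on 4 mouse reads), E2F7 (2.91) and E2F8 (2.88) were called higher, while E2F3, E2F4, E2F5 and E2F6 were not called, with log2 fold changes of -0.60, 0.55, 0.54 and -0.63. RBL1, a pocket protein whose gene is itself an E2F target, was called higher (3.14), and its relatives RB1 (0.97) and RBL2 (-0.60) were not called. Without gene length E2F4 (-0.30), E2F6 (0.47) and RBL2 (0.66) changed sign, and E2F3 (-1.29) and RB1 (1.61) passed the fold minimum. These changes are not firm, since a common factor left out of the reads worked out in either species would shift the value of a gene. Without rescaling RAD9A (0.15), E2F3 (0.61), E2F6 (0.63) and RBL2 (0.60) were above 0, each below the median of all genes, 1.29. These E2F and pocket protein genes, other than E2F1, were named after their values were seen.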

How the data were processed

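RNA-seq of 3 pika and 3 mouse fibroblast libraries was read from 1 deposited FPKM table per library, in which reads are divided by gene length and library total. STAR 2.6.1a, featureCounts, edgeR 3.28.1, CASAVA 1.9 and the build GRCm38 are listed, without order or species, in the submitters' processing notes; these sources do not name the pika annotation. Mouse identifiers were given symbols from a table of mouse genes (49326 of 49585), and 14418 genes were joined by an upper-cased symbol that occurred once per table. Rat and rabbit identifiers were not paired with symbols and were not used.

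Each library was rescaled so that joined genes sum to 1000000. The 10348 genes that reached a mean deposited FPKM of 1 in pika or mouse were tested by limma-trend (version 3.58.1 under R 4.3.3) on log2(rescaled FPKM + 1), pika minus mouse, two-sided, with Benjamini-Hochberg adjustment over all genes; this scale understates the change of low genes. Calls needed an adjusted p below 0.05 and a log2 fold change of at least 1 in size. The filter passed all 44 joined members, of which DSCC1, DTL, CDC6, GINS3, MCM10 and ORC1 passed through pika alone. Without the filter 40 members were again called higher and 0 lower. Reads, lengths and totals were worked out from the steps of the deposited FPKM (tolerance 0.002 reads) and recovered 95.7% to 96.4% of each total, and both reads and length of a gene may be divided by a common factor. The script was tested on simulated data. Other tools were Python 3.11.15, numpy 2.4.6 and pandas 2.3.3.

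Whether the 3 libraries of each species are separate animals or cultures is not in the labels, so p-values reflect the spread among these libraries alone. Members and lists were chosen with earlier results of these data known. Every member could be named. From the other replication genes, the 4 called with the highest and the 4 with the lowest fold change could be named, and from each marker list up to 3 by level.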

Additional observations from a re-analysis of the deposited data

How the results depend on the processing

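Over 15 alternative settings, between 39 and 44 of the 44 members were called higher in pika and 0 lower; the count was 39 under upper-quartile scaling and without gene length, 44 without rescaling, and 40 under every other setting. The members' median log2 fold change of 2.79 was 2.62 under median-of-ratios scaling, 2.56 under upper-quartile scaling and 3.62 without rescaling, and 2.72 to 2.79 when any 1 library was left out. Without gene length, GINS2 (-0.39) and ORC6 (-0.39) changed sign, ORC5 (0.84) and RFC5 (0.48) fell under the fold minimum and ORC4 (1.07) passed it. Without rescaling, GINS2 (2.01), ORC3 (2.10), ORC4 (1.84) and ORC6 (1.70) passed the minimum, while the median of all genes stood at 1.29 in place of 0.21, and 6029 genes were called higher and 1106 lower, against 2970 and 2433. Scaling by median of ratios gave 2586 higher and 2706 lower and by upper quartile 2471 and 2797, and a filter at 5 FPKM, which tests fewer genes, gave 1584 lower. Other replication genes called lower numbered 2, but 0 without rescaling and 4 without gene length (CHTF8, E2F3, LRWD1 and POLD4). Same-numbered pika and mouse libraries did not deviate together (correlations of -0.01, 0.05 and 0.01), so they share only a number; with the replicate block, 40 members, 41 and 2 other replication genes, and 2972 and 2433 of all genes were called, with a median of 2.79. Few mouse reads limit DSCC1, CDT1, GINS1 and GINS3 most, with 11 to 31 worked out for each over 3 libraries. A common factor may have made these read counts too low. The causes of these shifts were not tested, apart from the number of genes tested under the stricter filter.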
